A study of Mus musculus with 6 samples.

Results

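Plasmacytoid dendritic cells (pDCs) were examined among leukocytes of AML and normal mouse lung. The cells were chosen by measured values: a cell was taken as a pDC when it had at least 1 UMI (unique molecular identifier, a counted transcript) of Siglech, at least 2 detected genes among Siglech, Ccr9, Klk1, Cox6a2 and Pacsin1, and at most 1 UMI summed over Cd79a, Cd3e, Ncr1, Plet1, Retnlg and Xcr1. Of 71634 kept cells, 886 met this rule, or 1.24%. There were 40, 119 and 577 pDCs in AML lung replicates 1, 2 and 3, against 26, 15 and 109 in normal lung replicates 1, 2 and 3.

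pDCs are dendritic cells that sense nucleic acids in endosomes through Toll-like receptors 7 and 9, and that can release large amounts of type I interferon. Their identity depends on the transcription factor Tcf4, with Irf8, Spib and Runx2 among its partners. In lung they are rare, and they can both prime antiviral responses and restrain inflammation.

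The study profiled single cells of perfused, enzyme-digested lungs after selection for CD45, a surface protein of leukocytes, on magnetic beads. It set 3 libraries of lungs infiltrated by AML, acute myeloid leukaemia, in which immature myeloid cells accumulate, against 3 libraries of normal lung. The series title asks about tissue-specific microenvironments in AML. The labels give no leukaemia model, strain, age or treatment, and do not say whether each replicate was its own animal. The spread behind every p-value is therefore that among libraries and may be technical.

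Depth differed strongly between libraries. Totals ranged from 43913245 to 66513826 UMIs, while the median pDC held 15232.5, 4995 and 1315 UMIs in AML lung replicates 1, 2 and 3, against 17565, 8696 and 4059 in normal lung replicates 1, 2 and 3. Summed over all its pDCs, each library gave 619447, 655901 and 970548 UMIs in AML lung, against 481469, 136560 and 589160 in normal lung. One cell barcode was shared by pDCs of 2 libraries. Normal lung replicate 2, with 15 pDCs, was under the minimum of 20 cells and did not enter the gene tests, which therefore set 3 AML libraries against 2 normal libraries.

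The genes that chose the cells are given as a description only. Siglech, an inhibitory surface receptor typical of mouse pDCs, stood at 2722, 2357 and 1913 CPM, a gene's pDC UMIs scaled to a common library total, in the AML libraries, against 2665, 2980 and 3259 CPM in the normal ones. Ccr9, a chemokine receptor, stood at 955.7, 1204 and 808 CPM in AML lung, against 1036, 1069 and 779 CPM in normal lung. Cox6a2, a subunit of cytochrome c oxidase, stood at 886, 782 and 384 CPM in AML lung, against 565, 784 and 516 CPM in normal lung. The AML and normal ranges of all 3 overlapped. Klk1, a kallikrein protease, stood at 321, 624 and 256 CPM in AML lung, against 193, 278 and 200.3 CPM in normal lung, and these ranges overlapped as well. All 5 positive genes were detected in 136 pDCs, and exactly 2 of them in 294, of which 238 came from the shallow AML lung replicate 3.

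The label was checked on pDC genes that the rule did not use. Tcf4 reached 5952, 4652 and 3670 CPM in pDCs of AML lung, against 7255, 5814 and 6372 CPM in those of normal lung. In all other kept cells it reached only 117 to 171 CPM in AML lung, against 154 to 206 CPM in normal lung. Bst2, a membrane protein that tethers virions and marks mouse pDCs, reached 3011, 2688 and 1706 CPM in AML pDCs, against 1811, 3090 and 2341 CPM in normal pDCs. Irf8 reached 2023, 1985 and 1470 CPM in AML pDCs, against 1855, 2314 and 2224 CPM in normal pDCs. In each library these genes were far higher in the pDCs than in the other cells, so the data match the label. Bst2 was detected in 82.5%, 80.0% and 73.9% of AML pDCs after thinning to 1000 UMIs, against 76.9%, 100% and 82.2% of normal pDCs, and in 1.94% to 7.31% of B cells thinned likewise.

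**Figure D1:**
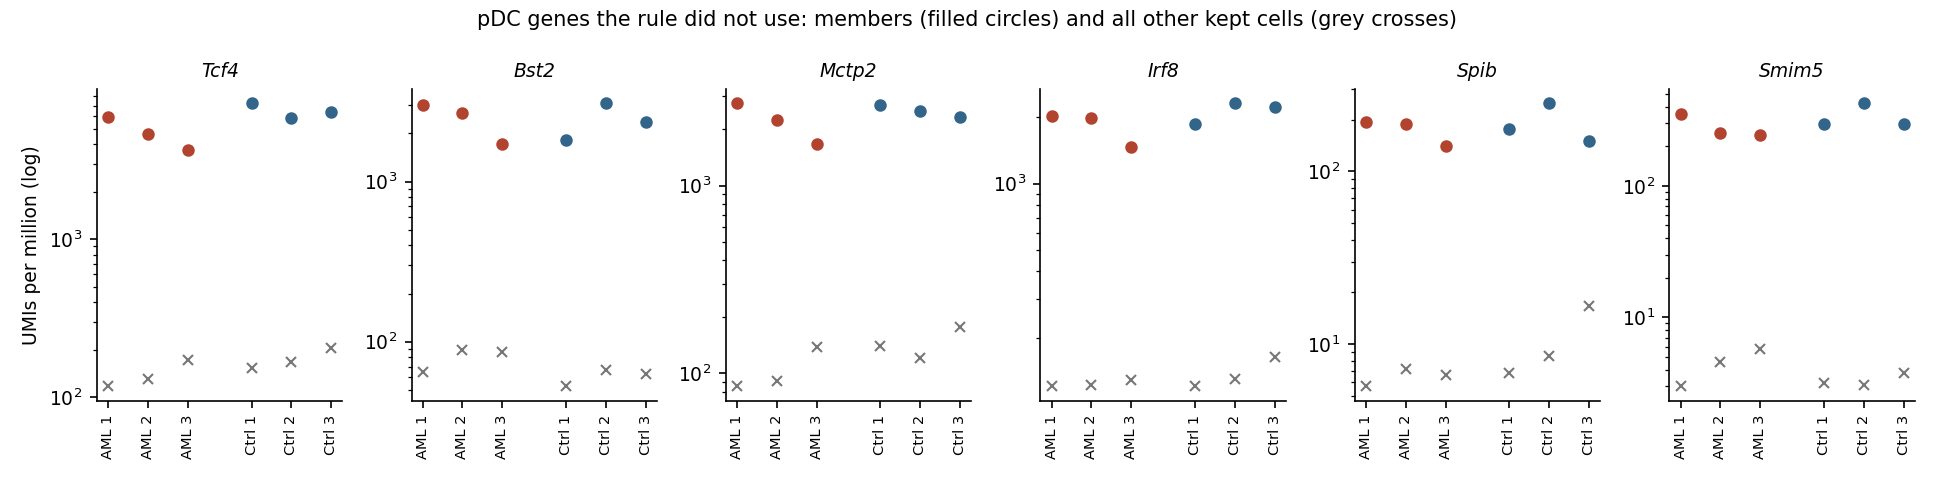
Levels of 6 pDC genes not used by the rule, in CPM on a log axis, one point per library, with AML libraries (red) left of normal libraries (Ctrl, blue). Filled circles are pDCs and grey crosses are all other kept cells, which lie below the pDCs for every gene in every library.

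Values pooled over libraries also reflect which library the cells came from. Cells at the edge of the rule are therefore described within single libraries, first AML lung replicate 3. There, the 339 members with 3 or more of the 5 genes had 3827 CPM of Tcf4 and 1745 CPM of Bst2. The 238 members with exactly 2 had 3371 CPM of Tcf4 and 1633 CPM of Bst2. The 204 cells just outside, with Siglech and no other gene of the 5, had 1631 CPM of Tcf4 and 864 CPM of Bst2. Lyz2, the lysozyme of monocytes and macrophages, was at 1526 CPM, 1927 CPM and 2315 CPM in the same order. Elsewhere the members with exactly 2 genes stood further from the rest. In AML lung replicate 2 these 25 had 2813 CPM of Tcf4 and 1421 CPM of Lyz2, against 4754 and 187 CPM with 3 or more. In normal lung replicate 3 these 28 had 3584 and 3368 CPM, against 6559 and 322 CPM. The 3 in normal lung replicate 1 had 7390 CPM of Tcf4, 524 CPM of Bst2 and 0 CPM of Lyz2. Over all libraries 317 cells lay just outside in this way. A further 150 cells had enough pDC genes and were left out by the excluded genes.

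RNA of other cell types was present in the pDC sums and was uneven between libraries. Lyz2 stood at 22.6, 252 and 1664 CPM in AML pDCs, against 18.7, 58.6 and 514 CPM in normal pDCs. The summed level of 7 neutrophil genes was 43.6, 508 and 1886 CPM in AML pDCs, against 58.2, 14.7 and 134 CPM in normal pDCs. As a share of the level in all other cells of the same library, that sum was 0.629%, 12.9% and 21.1% in AML lung, against 1.24%, 0.453% and 4.88% in normal lung. AML lung replicate 3 was the highest and AML lung replicate 1 was among the lowest. At 1000 UMIs per cell, Lyz2 was detected in 0%, 32.4% and 44.4% of AML pDCs, against 3.85%, 7.14% and 23.3% of normal pDCs. B cells, which should lack it, had it in 7.33%, 8.13% and 54.8% of AML lung B cells, against 6.03%, 9.78% and 13.8% in normal lung. In AML lung replicate 3 the share in pDCs was thus below that background, and in AML lung replicate 2 above it. Median depths of pDCs and B cells before thinning were 15232.5 and 6892 UMIs in AML lung replicate 1, and 1315 and 1341 UMIs in AML lung replicate 3. The part of this RNA in the gene differences described further on was not tested beyond the fits without AML lung replicate 3 and on deep cells.

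**Figure D2:**
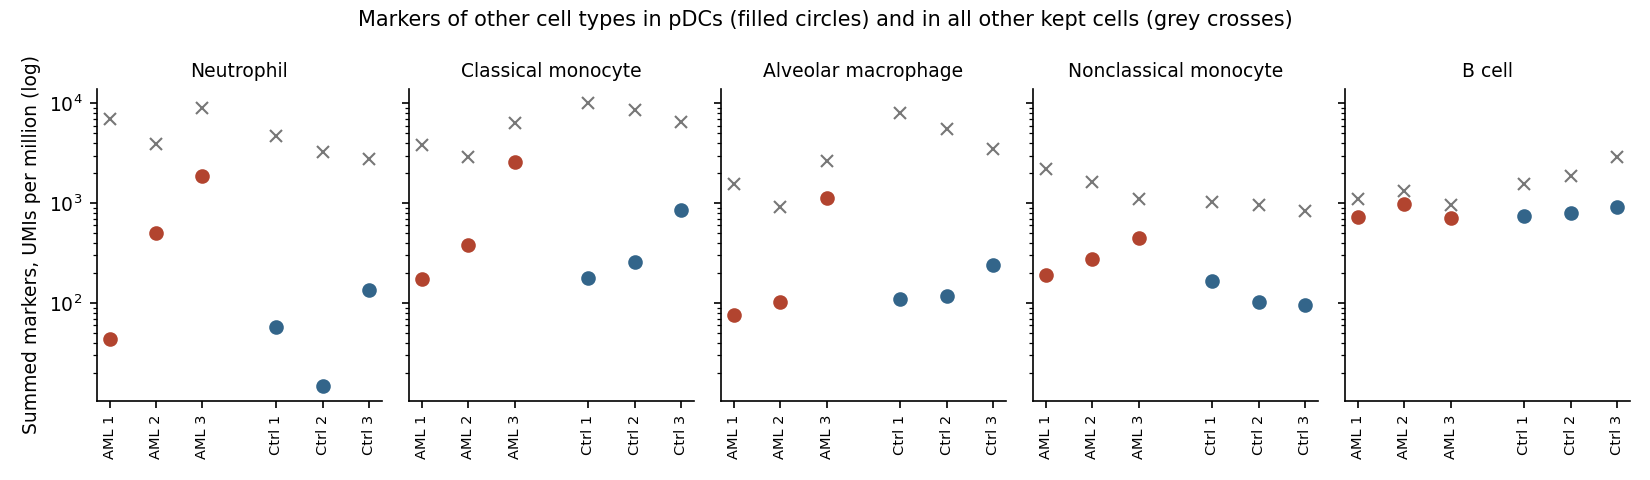
Summed levels of marker genes of 5 other cell types, in CPM on a log axis, by library, AML (red) left of normal (Ctrl, blue). Filled circles are pDCs and grey crosses all other kept cells, and the neutrophil genes reach 1886 CPM in pDCs of AML lung replicate 3 against 14.7 CPM in normal lung replicate 2.

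The share of pDCs among kept cells was 0.881%, 0.917% and 1.64% in AML lung, against 0.735%, 0.272% and 1.11% in normal lung. The ranges overlapped, since normal lung replicate 3 lay above AML lung replicates 1 and 2. The mean was 1.146% ± 0.427 for AML lung, against 0.705% ± 0.418 for normal lung (SD, n = 3 each), a difference of 0.441 percentage points with an exact two-sided permutation p of 0.4. With 3 libraries against 3 the smallest p this test allows is 0.1. Detection of the rule's genes needs depth, and after every cell was thinned to 1000 UMIs the difference was 0.432 percentage points with an exact p of 0.4.

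The share also depends on the other cells in the suspension. Leaving out cells with at least 2 UMIs of the nonclassical monocyte genes Ace, Treml4 and Cd300e, pDCs made up 1.95%, 1.43% and 1.79% of the remaining cells in AML lung, against 0.950%, 0.347% and 1.27% in normal lung. All AML values then lay above all normal values, with a difference of 0.869 percentage points and the smallest possible exact p of 0.1. Removal by these genes also needs detected UMIs and was not repeated on thinned cells. It left 1998 of 4538, 7631 of 12974 and 30526 of 35229 cells in AML lung. In normal lung it left 2738 of 3538, 4320 of 5507 and 8591 of 9848 cells. A conventional dendritic cell gate with its own marker and excluded genes held 1.47% ± 0.508 of AML lung cells, against 2.81% ± 0.341 of normal lung cells (SD, n = 3 each), a difference of -1.35 percentage points at an exact p of 0.1. Some cells in this gate had a UMI of the endothelial genes Cldn5, Cdh5 or Ptprb. Without them it held 89 of 93, 144 of 145 and 408 of 434 cells in AML lung. In normal lung it held 92 of 113, 119 of 149 and 233 of 250 cells. The share of this gate was not recomputed without them or on thinned cells. Whether the pDC and conventional dendritic cell differences differ from each other was not tested.

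**Figure D3:**
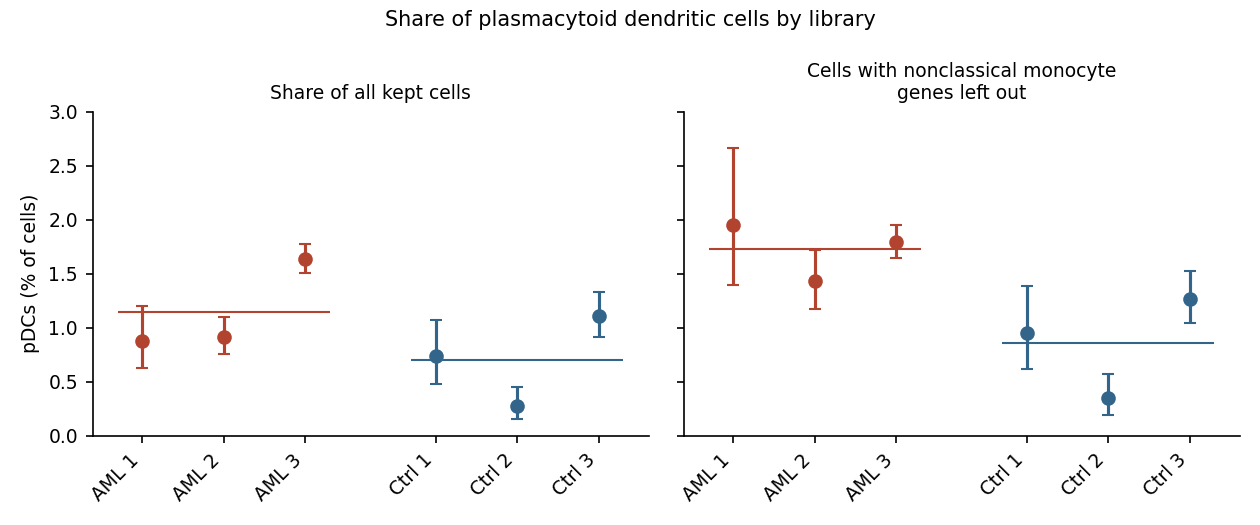
Share of pDCs in percent by library, AML (red) left of normal (Ctrl, blue), as a share of all kept cells (left) and without cells carrying nonclassical monocyte genes (right). Points carry exact 95% binomial intervals for counting error, lines are group means, and the groups overlap at left, where AML spans 0.881% to 1.64%, and separate at right.

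Gene expression in pDCs was compared on counts summed per library. No gene passed an adjusted p of 0.05 among 7526 tested with edgeR's quasi-likelihood test and Benjamini-Hochberg adjustment, so 0% were called. An unadjusted p under 0.05 was reached by 649 genes, or 8.62%. These counts include genes of the membership rule. Outside it an unadjusted p under 0.05 was reached by 647 of 7520 genes. DESeq2, which returned an adjusted p for 818 genes, called 5 of them, or 0.611%. These were Cyba, H2-Q7, H2-K1 and H2-D1, higher in AML pDCs, and Dip2c, lower by a log2 difference of -0.89. Over all 7520 genes outside the membership rule, every AML library lay above both tested normal libraries for 14.5% and below both for 12.8%. When the 15 pDCs of normal lung replicate 2 are counted too, these shares are 8.47% and 6.90%.

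MHC class I genes, which display intracellular peptides on the cell surface, held 3 of the 5 genes DESeq2 called. H2-Q7, a nonclassical class I heavy chain, was at 363, 319 and 296 CPM in AML pDCs, against 135, 264 and 124 CPM in normal pDCs. Its log2 difference was 1.31 (SE 0.222), with an adjusted p of 0.524 in edgeR and 2.71e-04 in DESeq2. H2-K1, a classical heavy chain, was at 1109, 1233 and 1082 CPM in AML pDCs, against 588, 1084 and 740.0 CPM in normal pDCs. The log2 difference of H2-K1 was 0.76 (SE 0.201), with an adjusted p of 0.524 in edgeR and 0.0204 in DESeq2. H2-D1, the other classical heavy chain, was at 1350, 1337 and 1094 CPM in AML pDCs, against 665, 1062 and 813 CPM in normal pDCs, a log2 difference of 0.75 (SE 0.206). In the tested libraries the groups did not overlap for any of these genes. Normal lung replicate 2, outside the test, stood between the groups or beside the lowest AML library, and its H2-K1 level overlapped that of AML lung replicate 3.

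H2-Q7 lies on chromosome 17 from 35439155 to 35443773 (plus strand), H2-K1 on chromosome 17 from 33996017 to 34000347 (minus strand) and H2-D1 on chromosome 17 from 35262730 to 35267499 (plus strand), in GENCODE coordinates of GRCm38. H2-Q7 and its neighbour H2-Q6 are near-identical paralogs, so how reads were divided between them is uncertain. Their promoters are shown because the class I heavy chains stood together in the comparison. Each window, from RefSeq on GRCm38.p6, runs from 250 bases before the RefSeq start to 50 after it, 5′ to 3′ on the gene's strand. For H2-D1 that start lies downstream of the GENCODE one, so its window falls inside the gene as given above.
H2-Q7 chr17:35438905-35439204: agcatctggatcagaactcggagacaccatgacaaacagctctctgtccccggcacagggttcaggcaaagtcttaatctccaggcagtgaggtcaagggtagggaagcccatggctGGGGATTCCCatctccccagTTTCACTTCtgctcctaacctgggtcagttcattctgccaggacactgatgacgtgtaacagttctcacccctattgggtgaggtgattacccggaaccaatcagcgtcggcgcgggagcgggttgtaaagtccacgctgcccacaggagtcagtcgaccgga
H2-K1 chr17:34000298-34000597: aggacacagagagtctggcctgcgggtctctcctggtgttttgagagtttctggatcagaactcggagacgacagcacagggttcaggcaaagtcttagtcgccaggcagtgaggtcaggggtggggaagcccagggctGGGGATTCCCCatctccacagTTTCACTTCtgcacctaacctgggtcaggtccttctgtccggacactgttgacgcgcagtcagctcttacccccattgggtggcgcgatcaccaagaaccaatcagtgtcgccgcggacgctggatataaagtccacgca
H2-D1 chr17:35262844-35263143: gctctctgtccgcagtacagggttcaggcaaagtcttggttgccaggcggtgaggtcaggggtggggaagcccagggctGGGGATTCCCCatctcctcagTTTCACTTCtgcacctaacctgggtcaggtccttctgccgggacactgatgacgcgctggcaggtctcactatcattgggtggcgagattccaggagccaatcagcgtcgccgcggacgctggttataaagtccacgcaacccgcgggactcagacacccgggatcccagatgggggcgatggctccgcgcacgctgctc

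Capitals mark matches, on either strand, to a pattern of NF-kB sites (GGGA, any base, T, any base, CCC), and to GAANNGAAA, a pattern of interferon regulatory factor sites. In H2-K1 and H2-D1 the first pattern matches once on each strand, and the 2 matches overlap in an 11-base run. Both patterns occur in all 3 heavy chain windows, in the same order. The window of B2m, the class I light chain, at chr2:122147437-122147736, holds no exact match to either. It does hold the stretches gaaactgaaa and gggaaagtccc, and variants of the patterns were not searched for. A lack of such sites in B2m is therefore not shown. Of 27025 promoters of this length, 1.05% hold the first pattern, 7.56% the second and 0.0703% both. These matches describe the sequence and say nothing about binding in pDCs.

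The whole class I list, with its light chain, peptide transporter, immunoproteasome and transactivator genes, had 15 tested genes of 15. Every AML library lay above both tested normal libraries for 9 of them, or 60.0%, beside 14.5% of all genes, and for none did every AML library lie below. The median log2 difference of the list was 0.56, beside 0.01 over all genes tested. Counting normal lung replicate 2 as well, 2 of the 15, H2-Q7 and H2-D1, kept the separation, beside 8.47% of all genes. B2m was at 1551, 1881 and 1595 CPM in AML pDCs, against 1072, 1567 and 1385 CPM in normal pDCs. The 1567 CPM of normal lung replicate 2 was above the 1551 CPM of AML lung replicate 1, so the groups overlapped once that library was counted. Other cells were set beside the pDCs. For H2-K1 the AML difference in pDCs, minus that in all other kept cells, was -0.13 on the log2 scale (SE 0.204, edgeR adjusted p 0.962), and the other cells had 1032, 1073 and 839 CPM in AML lung, against 466, 641 and 641 CPM in normal lung. For H2-Q7 the same quantity was 0.36 (SE 0.305), with an edgeR adjusted p of 0.912.

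**Figure D4:**
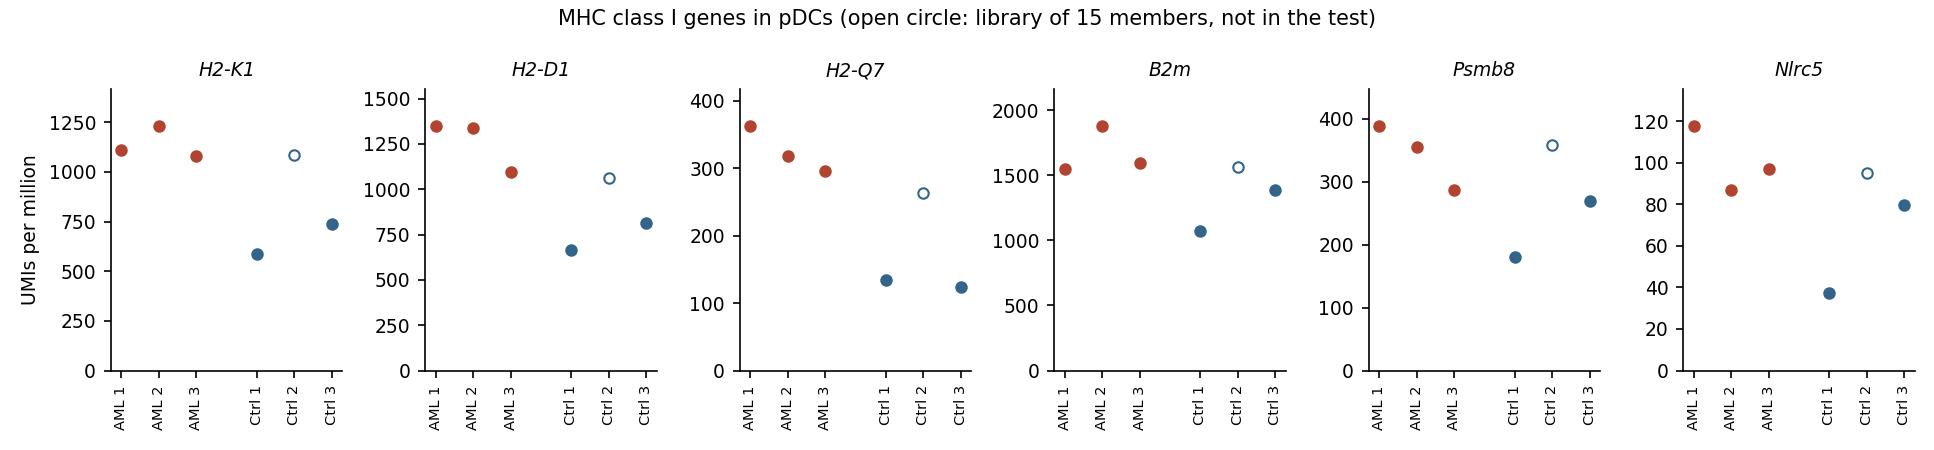
Levels of 6 MHC class I pathway genes in pDCs, in CPM, one point per library, AML (red) left of normal (Ctrl, blue). The open circle is normal lung replicate 2, whose 15 pDCs did not enter the test, and whose H2-K1 level of 1084 CPM overlaps the 1082 CPM of AML lung replicate 3.

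The 6 genes of smallest p in each direction were also described, none past the adjusted threshold (each adjusted p 0.524, edgeR). All 12 passed when low-count genes were not filtered out, with edgeR adjusted p between 2.41e-08 and 0.0151. That fit used the same libraries and called 333 genes. Since the 12 were chosen by smallest p on these libraries, it lends them no separate support. Cadm1, an immunoglobulin-family adhesion molecule, was at 50.04, 39.6 and 29.9 CPM in AML pDCs, against 127, 103 and 158 CPM in normal pDCs. All 3 normal values lay above all AML values, and the log2 difference was -1.87 (SE 0.284). With every pDC thinned to 1000 UMIs it was -0.86. Cadm1 lies on chromosome 9 from 47530173 to 47857637 (plus strand). In conventional dendritic cells Cadm1 was higher and overlapped between groups, at 337, 420 and 184 CPM in AML lung, against 363, 302 and 377 CPM in normal lung. The AML difference of Cadm1 in pDCs minus that in conventional dendritic cells was -1.56 (SE 0.296, edgeR adjusted p 0.598). Cadm1 was also listed as a marker of type 1 conventional dendritic cells. Of 8 such markers 3 were tested, and every AML library lay below both tested normal libraries for all 3, beside 12.8% of all genes. With normal lung replicate 2 counted, 2 stayed below, beside 6.90%. The part of such RNA in the Cadm1 difference was not tested.

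Tmtc2, an enzyme of protein glycosylation in the endoplasmic reticulum, was at 14.5, 6.10 and 25.8 CPM in AML pDCs, against 116, 146 and 73.0 CPM in normal pDCs. The sums behind those values were 9, 4 and 25 UMIs in AML lung, against 56, 20 and 43 UMIs in normal lung. Abcc1, an export pump for glutathione conjugates and leukotriene C4, was at 79.1, 73.2 and 82.4 CPM in AML pDCs, against 176, 168 and 148 CPM in normal pDCs. Rassf8, Eef2k, the kinase that inhibits elongation factor 2, and Trim36 completed the lower group, with log2 differences of -1.77, -1.40 and -1.09. Trim36 was at -1.97 with equal cell numbers per library.

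Cyba, the p22phox subunit of the NADPH oxidase, was at 594, 634 and 670 CPM in AML pDCs, against 220, 447 and 316 CPM in normal pDCs, a log2 difference of 1.22 (SE 0.231). Txn1, the reducing protein thioredoxin, was at 189, 194 and 222 CPM in AML pDCs, against 85.2, 103 and 104 CPM in normal pDCs. Its log2 difference of 1.07 was 0.44 with every pDC thinned to 1000 UMIs. Both genes separated the groups, normal lung replicate 2 included. Agpat4, an acyltransferase of phospholipid synthesis, and Ccnd2, cyclin D2, stood at log2 differences of 2.19 and 1.68. Other cells of the same libraries carried more Cyba, at 844 to 1031 CPM in AML lung and 562 to 647 CPM in normal lung, and more Agpat4, at 206 to 337 CPM in AML lung and 125 to 149 CPM in normal lung. Among pDCs of 3000 or more UMIs the log2 differences were 1.29 for Cyba, 2.85 for Agpat4, 1.33 for H2-Q7 and -1.80 for Cadm1.

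Normal lung replicate 2 had no part in choosing these 12 genes. Its level lay on the normal side of all AML libraries for 5 of the 6 higher genes, H2-Q6 being the exception, and for 6 of the 6 lower genes. Among all genes that separated the tested libraries, the same was true of 58.5% of those above and 53.8% of those below. Its values rest on few counts, 36 UMIs for H2-Q7 and 14 UMIs for Cadm1.

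**Figure D5:**
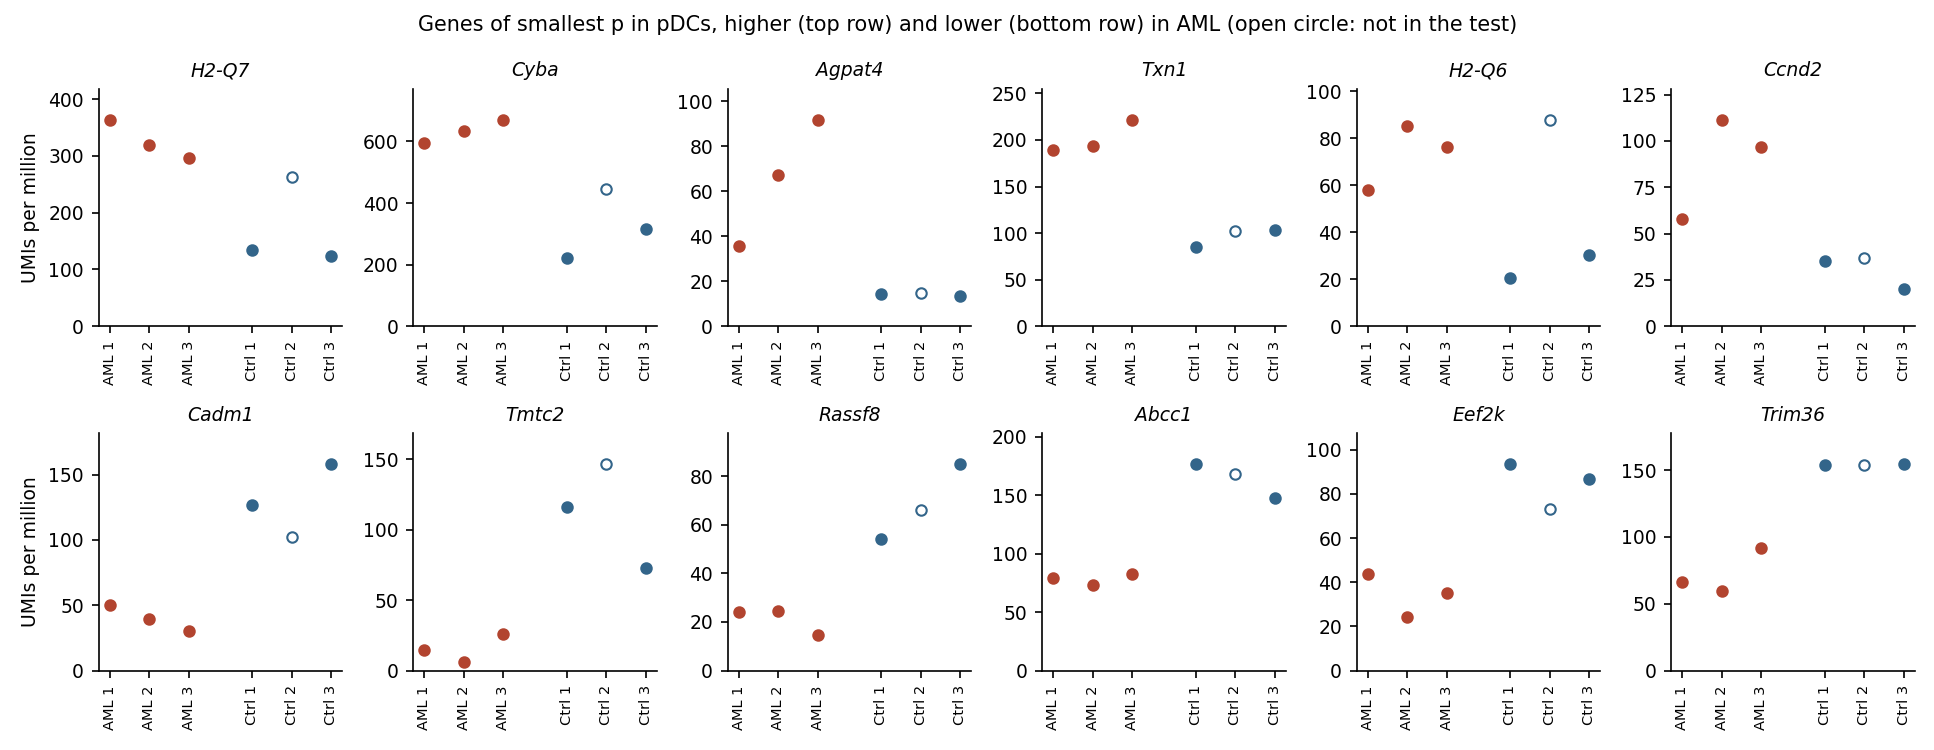
Levels in pDCs, in CPM, of the 6 genes of smallest p higher in AML (top row) and the 6 lower in AML (bottom row), one point per library, AML (red) left of normal (Ctrl, blue). Open circles are normal lung replicate 2, outside the test, which lies above the AML range for H2-Q6 and on the normal side for the other 11 genes.

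Transcription factors and cofactors of dendritic cell fate had 18 tested genes of 20, and none was called. The list mixes factors of pDCs with those of conventional dendritic cells, such as Zbtb46 and Batf3. Every AML library lay above both tested normal libraries for 2 and below for 3, beside 14.5% and 12.8% of all genes. With normal lung replicate 2 counted, 2 stayed above and 1 below, beside 8.47% and 6.90%. Id2, also on the list and not called in the main fit, was higher with the replicate number as a block. Its log2 difference there was 2.21 (edgeR adjusted p 0.0129). That fit also called markers of neutrophils and of nonclassical monocytes, and the part of such RNA in the Id2 difference was not tested. Tcf4 was below in each AML library, with a log2 difference of -0.53 (SE 0.224), although the 5952 CPM of AML lung replicate 1 exceeded the 5814 CPM of normal lung replicate 2. Mef2c, a transcription factor of lymphoid and myeloid development, was at 1388, 1528 and 1263 CPM in AML pDCs, against 1826, 2226 and 2332 CPM in normal pDCs, without overlap, a log2 difference of -0.60 (SE 0.196). Runx2, which controls exit of pDCs from bone marrow, was at 3111, 2295 and 1640 CPM in AML pDCs, against 3979, 2395 and 3035 CPM in normal pDCs, and the groups overlapped. Irf8 and Spib differed by -0.18 (SE 0.212) and 0.08 (SE 0.241).

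Of the 20 pDC marker genes outside the rule, all were tested. In the AML libraries 1 lay above and 3 below both tested normal libraries, shares under or near the 14.5% and 12.8% of all genes, and the median log2 difference was -0.11. Lair1, an inhibitory receptor for collagen, was at 670, 747 and 474 CPM in AML pDCs, against 820, 813 and 710 CPM in normal pDCs, with overlapping groups. The Fc receptor chain Fcer1g, which carries activating signals, was at 686, 735 and 976 CPM in AML pDCs, against 349, 491 and 499 CPM in normal pDCs, without overlap, and was listed with the inhibitory receptors. Of the 20 genes of that list 17 were tested. Every AML library lay above both tested normal libraries for 2 and below for 3. With normal lung replicate 2 counted, 2 stayed above and 3 below, beside 8.47% and 6.90% of all genes. In other cells Fcer1g stood at 1654 to 2150 CPM in AML lung, against 786 to 889 CPM in normal lung.

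Of 22 nucleic acid sensing genes listed 19 were tested and none was called. In every AML library 1 lay above and 1 below both tested normal libraries, beside 14.5% and 12.8% of all genes, and the median log2 difference was -0.05. Tlr7, the endosomal RNA receptor, was at 150, 145 and 120 CPM in AML pDCs, against 174, 264 and 119 CPM in normal pDCs. Unc93b1, which escorts these receptors to endosomes, was at 668, 604 and 486 CPM in AML pDCs, against 575, 769 and 625 CPM in normal pDCs. The groups overlapped for both. Tlr9, the DNA receptor, had 3, 2 and 1 UMIs in AML pDCs, against 1, 0 and 2 UMIs in normal pDCs, too few to compare. Irf7, the factor that induces interferon alpha, was at 236, 201 and 138 CPM in AML pDCs, against 95.5, 242 and 112 CPM in normal pDCs. Its tested libraries did not overlap, whereas normal lung replicate 2 was above every AML library.

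No listed interferon gene was detected in pDCs, and interferon genes off the list were not looked up. The 12 type I and type III interferon genes listed had 0 UMIs in the 3453085 UMIs of all pDCs, which allows a summed level of up to 0.869 CPM and a share of up to 0.339% of pDCs with a UMI. AML lung replicate 3, with 577 of the 886 cells, weighs most in that limit. For single libraries the limit ran between 0.520% of cells in that library and 20% in normal lung replicate 2. This limit covers counting error only. Other kept cells held 20 UMIs of Ifnb1 and 1 each of Ifnab and Ifnl2.

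Interferon-stimulated genes had 24 tested of 38, none called. Every AML library lay above both tested normal libraries for 6 and below for 1, beside 14.5% and 12.8% of all genes, with a median log2 difference of 0.43. With normal lung replicate 2 counted, 5 stayed above and 1 below, beside 8.47% and 6.90%. Zbp1, a sensor of left-handed nucleic acid, was at 25.8, 25.9 and 31.9 CPM in AML pDCs, against 4.15, 7.32 and 8.49 CPM in normal pDCs, a log2 difference of 2.06 (SE 0.504). Ifih1, the cytosolic RNA sensor MDA5, was at 43.6, 32.02 and 38.1 CPM in AML pDCs, against 4.15, 14.7 and 15.3 CPM in normal pDCs. Rsad2, the antiviral enzyme viperin, was not tested and had 14, 10 and 15 UMIs in AML pDCs, against 0 in each normal library, where 3 counts correspond to 6.23, 21.97 and 5.09 CPM. Isg15 and Ifit2 overlapped between groups, and other cells also carried more Zbp1 in AML lung, at 74.4 to 119 CPM, against 29.2 to 40.5 CPM in normal lung.

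MHC class II genes, which present extracellular antigen, did not separate. Of 15 listed genes 12 were tested, and none lay wholly above or below in AML pDCs. Cd74, the invariant chain, was at 2853, 4118 and 2423 CPM in AML pDCs, against 2189, 2929 and 3013 CPM in normal pDCs. H2-Aa was at 798, 1395 and 814 CPM in AML pDCs, against 712, 915 and 1034 CPM in normal pDCs.

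Genes of oxidative phosphorylation, all 34 tested, lay above both tested normal libraries in every AML library for 20 and below for 0, beside 14.5% and 12.8% of all genes, with a median log2 difference of 0.31. With normal lung replicate 2 counted, 6 of 34 stayed above, beside 8.47% of all genes. Cox4i1, a core-associated subunit of cytochrome c oxidase, was at 581, 679 and 590 CPM in AML pDCs, against 392, 505 and 543 CPM in normal pDCs. Glycolysis genes had 17 tested of 20, with 8 above and 1 below, beside the same 14.5% and 12.8%, and a median log2 difference of 0.70. With normal lung replicate 2 counted, 5 of 17 stayed above and 0 below. Gapdh was at 358, 387 and 482 CPM in AML pDCs, against 170, 300.2 and 244 CPM in normal pDCs, a log2 difference of 0.96 (SE 0.253). Other cells carried more Gapdh than pDCs in every library, and more in AML lung, at 600 to 648 CPM, against 432 to 517 CPM in normal lung.

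Of 16 effector genes listed, 5 were tested and none was called. Every AML library lay above both tested normal libraries for 2 and below both for 1, beside 14.5% and 12.8% of all genes, and 1 stayed above with normal lung replicate 2 counted. Ccl4, a chemokine that pDCs make, was at 1319, 1232 and 990.2 CPM in AML pDCs, against 762, 2146 and 944 CPM in normal pDCs. It separated the tested libraries and overlapped through the 2146 CPM of normal lung replicate 2. Tgfb1, a cytokine that restrains immune responses, was at 239, 258 and 236 CPM in AML pDCs, against 191, 139 and 195 CPM in normal pDCs, without overlap. Gzmb was at 0, 4 and 6 UMIs in AML pDCs, against 0 in each normal library.

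The summed level of 8 nonclassical monocyte markers separated the groups within the pDC sums. Cd300e had 4, 17 and 54 UMIs in AML pDCs, against 0 UMIs in each normal library, and so entered the test through its AML counts alone. The sum was at 192, 278 and 447 CPM in AML pDCs, against 166, 103 and 96.8 CPM in normal pDCs. In other cells it was at 2186, 1643 and 1107 CPM in AML lung, against 1037, 956 and 827 CPM in normal lung. The part of such RNA in the differences of single genes was not tested.

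The AML difference in pDCs was compared with that in other cells. The sum over all other kept cells mixes cell types whose shares differ between libraries. In it a change within cells and a change of cell make-up cannot be told apart. Against all other kept cells, 3 of 16078 genes passed in edgeR, or 0.0187%, all lower in pDCs relative to the other cells. Lifr, the receptor of leukaemia inhibitory factor, on chromosome 15 from 7090614 to 7197489, was at 465, 287 and 305 CPM in AML pDCs, against 874, 542 and 492 CPM in normal pDCs. In the other cells it ran the opposite way, at 116, 79.3 and 107 CPM in AML lung, against 24.7, 33.6 and 32.9 CPM in normal lung. Each group separated from the other in both cell sets, and the difference between the differences was -2.82 on the log2 scale (SE 0.339, adjusted p 0.0255). Fmnl2, a formin that builds actin filaments, and Tbc1d8, a putative regulator of Rab proteins, gave -1.69 (SE 0.213) and -1.79 (SE 0.236). Within pDCs Fmnl2 overlapped between groups, while Tbc1d8 was at 910.5, 858 and 451 CPM in AML pDCs, against 945, 1076 and 949 CPM in normal pDCs, without overlap. In other cells both genes were higher in every AML library. Fmnl2 was at 220, 150 and 149 CPM in the other cells of AML lung, against 62.3, 67.7 and 92.1 CPM in those of normal lung. No gene passed without AML lung replicate 2 or without normal lung replicate 1, although over the 9 alternatives run the differences themselves kept between -3.37 and -2.25 for Lifr, -1.82 and -1.56 for Fmnl2, and -1.97 and -1.69 for Tbc1d8. By contrast, 558 genes passed without AML lung replicate 1, 134 without AML lung replicate 3. Against conventional dendritic cells, 0 of 9956 genes passed in edgeR, and 633 had an unadjusted p under 0.05.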

How the data were processed

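Per gene and barcode, the deposited values are raw UMI counts, whole and not normalized, for 32285 features in each of 6 libraries. They were made by the authors with Cell Ranger 7.0.0 on mm10, per the submitters' processing notes, from 10x Genomics 3' v3.1 libraries, per the labels' protocols. How barcodes were called as cells is not stated in those notes. Gene names and identifiers (unit other) are as deposited.

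Barcodes with 500 or more UMIs, 200 or more genes and under 10% mitochondrial UMIs were kept, 71634 of 73095. Sums of pDC counts per library entered edgeR 4.0.16 under R 4.3.3 (TMM, filterByExpr, quasi-likelihood F test, Benjamini-Hochberg adjustment at 0.05 over all genes). The cell class by group interaction had library as a factor. CPM values are plain shares of the summed UMIs. SE is the log2 difference over the square root of F. Shares were compared with an exact two-sided permutation test over libraries. Scrublet in scanpy 1.11.5 marked 9 pDCs as doublets, which were kept. Its own threshold marked under 0.5% in 3 libraries, where the median of the others, 0.227, was used. Intervals (exact, 95%) and the limit from 3 counts cover counting error only. Replicates of one group differed beyond counting noise and were kept apart. The scripts were tested on simulated data.

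Conventional dendritic cells were kept cells outside the pDC rule with Flt3 or Zbtb46, at least 2 of 10 dendritic cell genes and at most 1 UMI over Cd79a, Cd3e, Ncr1, Plet1, Retnlg and Siglech. The members and lists were chosen with earlier results of these data known. Genes were named as the 6 of smallest p per direction above a mean log2 CPM of 5, none having passed, and as members of 35 gene lists, of which 491 of 494 genes matched. H2-K1 and H2-D1 were called by DESeq2 1.42.0, and values of further list members were chosen after being seen. Alternatives were RLE size factors, no filter on low counts, DESeq2, the replicate number as a block, each library left out, a stricter rule (2 Siglech UMIs, 3 genes, no excluded UMI), no doublets, equal cell numbers, thinning to 1000 UMIs and every library. Gene coordinates are GENCODE's on GRCm38 (mm10).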

Additional observations from a re-analysis of the deposited data

Results flagged for a closer look

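Genes whose AML difference in pDCs departed from that in all other kept cells, by the interaction test in edgeR, were Lifr at -2.82, Tbc1d8 at -1.79 and Fmnl2 at -1.69 on the log2 scale, which is the difference in pDCs minus the difference in other cells. The other cells are a sum over cell types whose shares differ between libraries, so cell make-up may enter these values. Lifr averaged 352 ± 98.1 CPM in AML pDCs and 683 ± 270.2 CPM in the tested normal pDCs (SD, n = 3 and n = 2). Over the 9 alternative settings run, the interaction value of Lifr lay between -3.37 and -2.25 and its adjusted p between 2.2e-17 and 0.849, passing in 6 of them. Fmnl2 and Tbc1d8 each passed in 5 of the 9.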

How the results depend on the processing

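The share difference stayed above 0 in every setting run, between 0.195 and 0.642 percentage points with each library left out and 0.139 under the stricter rule. The count of genes called on the pDC sums was 0 in the main edgeR fit. It was 333 (213 higher, 120 lower) with no filter on low counts and 83 (72 higher, 11 lower) with the replicate block. It was 5 with DESeq2, and 0 in the other settings that kept both tested normal libraries. Genes of the membership rule were not left out of these fits, and Retnlg was among the 83. So were markers of neutrophils (S100a8, S100a9) and of nonclassical monocytes (Cd300e, Treml4, Fabp4). Same-numbered libraries correlated at 0.168 and 0.153 in their deviations, but 2 such pairs are too few to take the numbers as pairing the libraries. Cadm1, Tmtc2, Rassf8, H2-Q7, Agpat4 and Cyba passed with the block, at edgeR adjusted p between 0.00280 and 0.0199. Against conventional dendritic cells the count was 164 with no filter and 0 to 1 with each library left out. Against all other cells the count, 3, was 122 with no filter, 33 under the stricter rule, 0 with pDCs of 3000 or more UMIs (chosen after seeing the data) and 0 to 558 with each library left out. The cause of these moves was not tested. None of the 12 genes of smallest p changed sign in 171 values, and 20 of these values passed the threshold. The 12 were chosen on these libraries and the alternatives reuse them, so a stable sign lends them no separate support. Leaving out normal lung replicate 2 gave no separate gene fit, since it was not in the fit. Depth limits low genes: 3 counts equal 3.09 to 21.97 CPM per library.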

Other observations

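One pDC of normal lung replicate 1, with 39954 UMIs, carried genes of mature, migrating dendritic cells and was not marked as a doublet. It held 43 of the 47 UMIs of Ccr7, the receptor that guides such cells to lymph nodes, among the pDCs of its library, 62 of 63 of the costimulator Cd80, and all 45 of Fscn1, which bundles actin in dendrites. All 42 UMIs of the chemokine Ccl22 came from it as well. The same cell held 31 UMIs of Siglech, 14 of Ccr9 and 144 of Tcf4. Values of these maturation genes in normal lung replicate 1 are therefore close to those of 1 cell. The cell was chosen after its values were seen.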
